A study of Brassica napus with 24 samples.

Results

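The 100 array probes described here stood highest over their mock-treated values in every tissue of rapeseed (Brassica napus, variety 'Zhongshuang No.9') that was sampled after a spray with monosulfuron ester sodium (MES). They were 100 of the 43603 probes of the array. For each of the 4 tissues the difference was the mean log2 level of the 3 MES-treated samples minus that of the 3 mock-treated samples. Probes whose MES mean was at least 7 in all 4 tissues were kept, which left 26909, and the smallest of the 4 differences served as the score by which the 100 were taken. The score ran from 4.10 for the first member to 1.5 for the last, with a median of 1.86. The last members inside were A_46_P181294 at 1.51 and UBP18 at 1.5, and the first probes outside were A_46_P346740, a probe for a thiolase family protein, and A_46_P318560, both at 1.49. Because the differences between MES-treated and mock-treated samples chose the members, they are given below as a description and carry no test.

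MES is a sulfonylurea that is sprayed to induce male sterility. MES-treated plants received 0.1 μg/mL MES, about 15 mL per plant, with DMF (50 ppm) and Tween 80 (5 ppm) as carriers, and mock-treated plants received the carriers alone. The tissues were young leaves of the main inflorescence (Ls), small buds under 1 mm long (SBs), anthers of middle buds of 1 to 3 mm (An-MBs) and anthers of large buds over 3 mm (An-LBs), and each of the 8 groups had 3 samples, each a mixture from 20 rows of plants. Every sample was hybridized to 1 single-colour array, and all values below are log2 levels after quantile normalization, so that a difference of 1 is 2-fold. With 3 arrays per group, the precision is limited. MES-treated samples lay on slides 4 to 7 and mock-treated samples on slides 1 to 3, so slide and treatment cannot be told apart. Between 73.0% and 81.9% of the probes of an array were well above background, and the median signal ran from 377.5 to 1208. MES An-MBs replicate 2, with a median signal of 383.9, was dim beside the other arrays of that tissue, and MES An-LBs replicate 2 was the one array on slide 7, read on another day with another scanner model than the rest of its group. Slide 1, with replicate 1 of every mock-treated group, was read on a day on which no MES-treated array was read. Over the members, mock replicate 1 differed from the mean of mock replicates 2 and 3 by medians of 0.06 (Ls), 0.08 (SBs), -0.15 (An-MBs) and 0.12 (An-LBs). Over the members, MES An-LBs replicate 2 differed from the mean of replicates 1 and 3 by a median of -0.00017 and lay above every mock An-LBs array in 99 of them, and MES An-MBs replicate 2 differed from its 2 partners by a median of -0.26.

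Sulfonylureas act on acetolactate synthase, the plastid enzyme that opens the synthesis of the branched-chain amino acids valine, leucine and isoleucine. Plants short of sugar or kept in the dark switch on a known group of transcripts, among them genes for the breakdown of sugars, cell walls, proteins and amino acids, and many of these also follow the circadian clock. In anthers the young pollen and the tapetum that feeds it depend on imported sugar. Gene names were taken from a published table of 1501 probes, which the study had selected on these same arrays. The selection was for changes with MES and between tissues, so the members with a name are those that passed it. Of the members, 14 could be paired with an Arabidopsis gene, each with a different one, out of 1379 probes of the table with such a name. The other 86 members are given by probe identifier only, since none of the array identifiers was found in the RefSeq gene table. No nucleotide sequence of a probe was used, and no genome positions were given to the members.

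By the rule, the mean level of every member was at least 7 in MES-treated samples of all 4 tissues. The median member averaged 12.05 in MES-treated Ls, against 9.41 in mock-treated Ls. It averaged 11.96 in MES-treated SBs, against 9.58 in mock-treated SBs. The median was 12.32 in MES-treated An-MBs, against 9.33 in mock-treated An-MBs, and 13.02 in MES-treated An-LBs, against 8.89 in mock-treated An-LBs. The MES-treated level was thus highest, and the mock-treated level lowest, in the latest anther stage. Of the 100 members, 67 were well above background on all 24 arrays and none was saturated on any. On all 3 MES-treated arrays, 95 members were well above background in Ls and 100 in each other tissue. A_46_P244414, with 5.40, 5.21 and 11.26 in MES-treated Ls, was well above background on 1 of these arrays only. The same held for A_46_P237429, with 4.89, 5.64 and 10.84. Both reached the minimum in Ls through MES Ls replicate 3. For 9 members no array of the mock-treated group of some tissue was well above background. For these only a lower bound of the fold can be given, the MES mean over the dimmest signal called well above background on each mock array, and it was at least 2.31-fold to at least 27.9-fold in Ls, at least 4.56-fold to at least 20.1-fold in SBs, at least 9.78-fold to at least 22.3-fold in An-MBs and at least 9.06-fold to at least 10.2-fold in An-LBs.

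**Figure D1:**
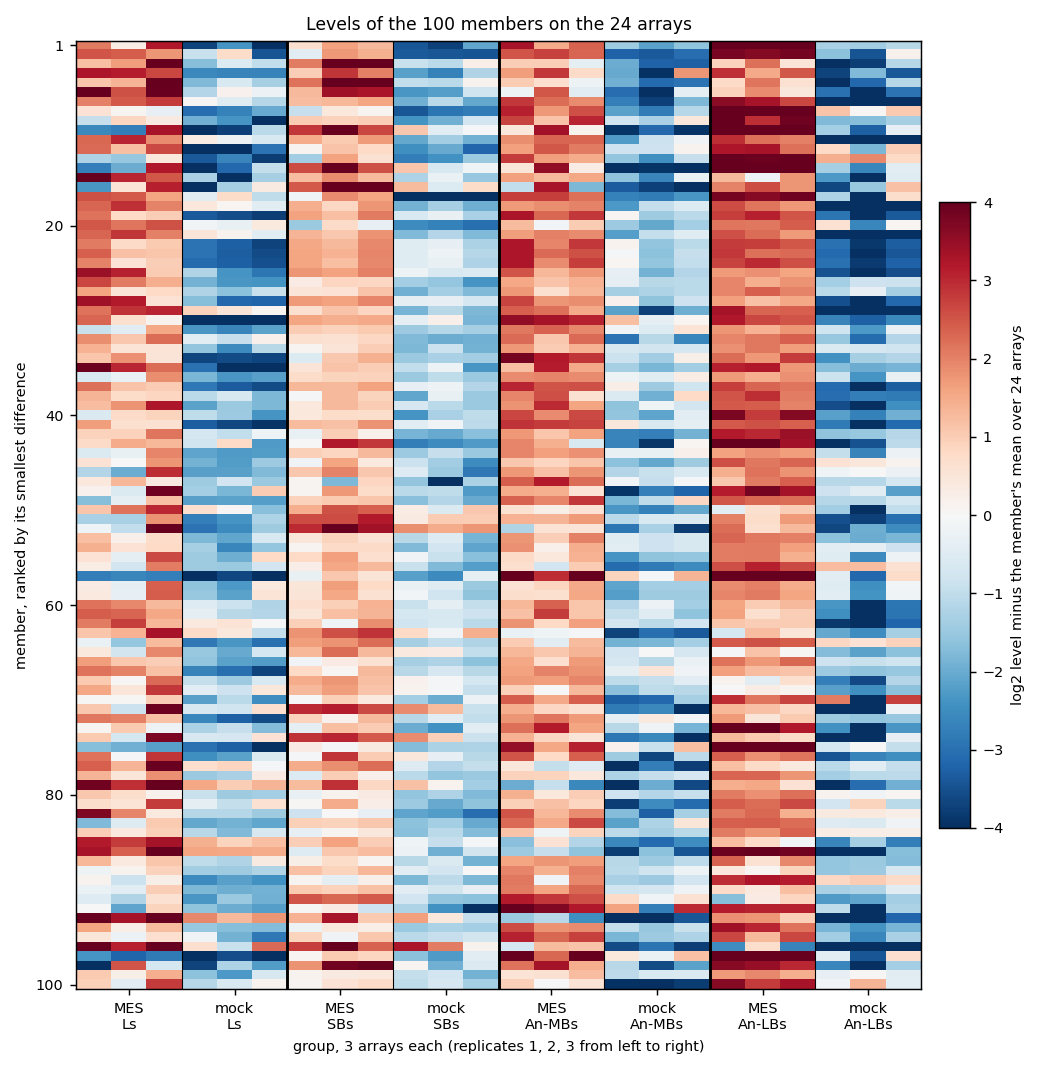
Each row is 1 of the 100 members, ranked from the top by score, and each column 1 of the 24 arrays, with the MES-treated group left of the mock-treated group of each tissue; colour gives the log2 level minus the mean of that member over all arrays. MES columns are red and mock columns blue in every tissue for most rows, and the contrast is strongest in An-LBs, where the median difference was 4.02.

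The size of the difference was not alike in the 4 tissues. The median difference over the members was 2.42 for Ls, 2.16 for SBs, 3.02 for An-MBs and 4.02 for An-LBs, beside medians of -0.0030, 0.06, -0.03 and 0.29 over the 26909 probes that met the same minimum level. The differences ran from 1.51 to 7.12 (Ls), from 1.5 to 5.87 (SBs), from 1.53 to 5.73 (An-MBs) and from 1.58 to 8.08 (An-LBs). SBs gave the smallest of the 4 differences for 49 members and Ls for 34, whereas An-LBs gave the largest for 59. With the lower bound used wherever the mock-treated group was not well above background, the difference was at least 16-fold for 19 members for Ls, 7 for SBs, 18 for An-MBs and 48 for An-LBs. For 17 members the 4 differences lay within 1 of each other, HGO and A_46_P353250 among them. The narrowest set, 1.95, 1.57, 1.78 and 1.82 in the 4 tissues, belonged to A_46_P235464. The widest belonged to A_46_P291833, with 1.74 for Ls, 1.56 for SBs, 1.63 for An-MBs and 8.08 for An-LBs. Both were picked after their values were seen. In mock An-LBs A_46_P291833 was well above background on 1 of 3 arrays only, so the size of 8.08 is uncertain. The other highest differences of single tissues were those of A_46_P083241 in Ls, where the mock-treated group was not well above background and the bound was at least 27.9-fold, and those of A_46_P276553 in SBs and A_46_P277608 in An-MBs, where in the same way the bounds were at least 20.1-fold and at least 19-fold. As a measure of how common the pattern was, 4332 of the 26909 probes (16.1%) had all 4 differences above 0 and 255 had all 4 at 1 or more. In the opposite direction 25689 probes had mock means of at least 7 in all tissues, 2837 had all 4 differences below 0 and 45 had all 4 at -1 or less.

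**Figure D2:**
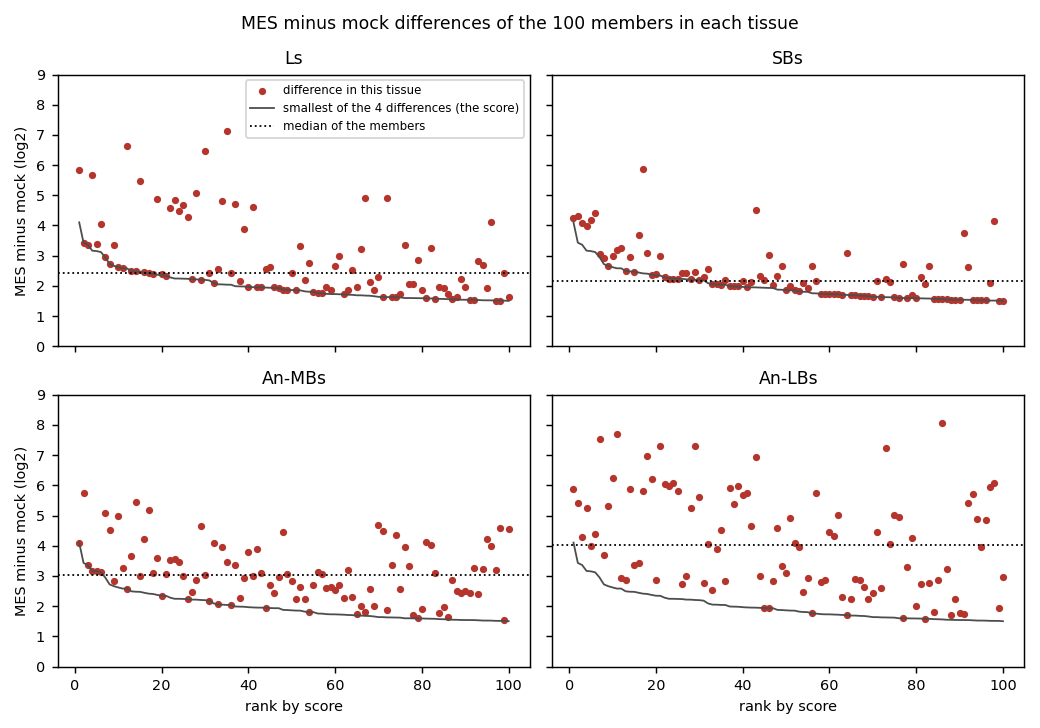
Each panel plots, for 1 tissue, the MES minus mock difference in log2 (vertical axis) of the 100 members by their rank (horizontal axis), with the score as a line and the median of the members as a dotted line. Points lie closest to the score line in SBs, with a median of 2.16, and highest above it in An-LBs, with a median of 4.02.

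In single tissues the 3 MES-treated samples lay above the 3 mock-treated samples without overlap for 81 members (Ls), 94 members (SBs), 95 members (An-MBs) and 98 members (An-LBs), beside 20.3%, 16.2%, 16.5% and 39.5% of the 26909 probes with the same minimum level. In all 4 tissues at once this held for 70 members, beside 2.03% of these probes. It held in 3 tissues for 28 more, and in 2 tissues for A_46_P247374 and A_46_P251864. For 27 members, CEN2, MEE14 and AtSIP2 among them, all 12 MES-treated arrays of all tissues lay above all 12 mock-treated arrays. With limma, at an adjusted p under 0.05 and at least 2-fold, 46 of the 97 members tested were called higher in MES-treated Ls, beside 2.52% of all probes tested. The count was 68 of 100 in SBs, beside 1.81%, 84 of 100 in An-MBs, beside 4.24%, and 96 of 100 in An-LBs, beside 17.3%. Every difference of the members was above 0, so none could be called lower, beside 2.29% of the probes in Ls, 2.32% in SBs, 2.86% in the middle anthers and 11.9% in the late anthers. Members called in all 4 tissues numbered 33, those called in 3 numbered 34, in 2 tissues 28 and in 1 tissue 4, and 1 was called in none. Since the rule drew on the same contrast, nothing is read from these counts. They moved strongly with single arrays outside An-LBs. In Ls 6 members were called without MES Ls replicate 1, and 1 without mock Ls replicate 1, 2 or 3. In SBs 45 were called without MES SBs replicate 1 or 2, 16 without replicate 3, 5 without mock SBs replicate 1 and 37 without mock SBs replicate 2. In An-MBs the count was 40 without MES An-MBs replicate 1, 36 without replicate 3, and 24, 49 and 40 without mock An-MBs replicates 1, 2 and 3. In An-LBs it stayed between 87 and 96.

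Markers of other cells moved with the treatment in the anthers. Marker probes were looked for only in the published table, which the study had selected on these same arrays for a change with MES. Counts of calls over the marker probes are therefore no independent evidence. The summed signal of 25 probes for late pollen genes was between 17830 and 26960 in MES-treated An-LBs, against 6337000 to 6604000 in mock-treated An-LBs. It was between 410.7 and 516.3 in MES-treated An-MBs, against 555300 to 1969000 in mock-treated An-MBs, so the pollen transcripts that mark both anther stages in mock-treated plants were low or undetected after MES. In MES-treated An-MBs 22 of the 25 were well above background on no array. All 25 were called lower in An-LBs, and 23 of the 23 tested in An-MBs. The summed signal of 12 leaf photosynthesis probes was between 224100 and 278900 in MES-treated An-LBs, against 75500 to 78010 in mock-treated An-LBs, and 11 of the 12 were called higher and 1 lower. It was between 253500 and 308100 in MES-treated An-MBs, against 94480 to 163300 in mock-treated An-MBs, with 3 of the 12 called higher. In Ls and SBs, where the members were higher as well, no photosynthesis probe was called by limma, 1 in each tissue being lower at an unadjusted p under 0.05, and the sums were 1424000 to 1718000 in MES-treated Ls, against 1617000 to 1802000 in mock-treated Ls. In SBs the photosynthesis sums were 340000 to 488000 in MES-treated plants, against 323100 to 377700 in mock-treated plants. Only 1 of 16 listed tapetum genes was matched, by 1 probe. This tapetum probe had between 64.57 and 4112 in MES-treated SBs, against 37410 to 77170 in mock-treated SBs, and was not called there. In the middle anthers, where it was not called either, it had between 61.71 and 694.7 in MES-treated An-MBs, against 14.98 to 2918 in mock-treated An-MBs. Not all mock An-MBs arrays had it well above background. It was called lower in An-LBs, with 13.45 to 21.61 in MES-treated An-LBs, on no array well above background, against 208.4 to 424.2 in mock-treated An-LBs. The part of these shifts in the differences of the members was not tested, and in these bulk samples fewer cells of a type cannot be told apart from less RNA per cell.

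Among the named members, 4 belong to the transcripts known in Arabidopsis to accumulate in sugar starvation or darkness. The largest difference of this group was that of MEE14 (AT2G15890), named for the embryo arrest of its mutant. Its levels were 15.53, 16.07 and 15.22 in MES-treated Ls, against 13.69, 13.35 and 12.76 in mock-treated Ls. In the small buds they were 14.57, 14.29 and 14.98 in MES-treated SBs, against 11.43, 12.03 and 11.43 in mock-treated SBs. MES-treated and mock-treated samples did not overlap in either tissue. The levels were 14.86, 15.20 and 15.10 in MES-treated An-MBs, against 10.98, 12.24 and 12.72 in mock-treated An-MBs. In the late anthers they were 15.78, 15.45 and 14.91 in MES-treated An-LBs, against 8.45, 7.26 and 8.53 in mock-treated An-LBs, a difference of 7.30 (157-fold). The MES-treated level varied by 0.99 over the 4 tissues, and the mock-treated level by 5.18. A second member with the same array identifier, A_46_P344365, followed MEE14 closely. It had 15.18, 15.78 and 14.84 in MES-treated Ls, against 13.27, 12.91 and 12.40 in mock-treated Ls, and 14.31, 13.69 and 14.61 in MES-treated SBs, against 10.95, 11.52 and 10.90 in mock-treated SBs. Later it had 14.54, 14.70 and 14.83 in MES-treated An-MBs, against 10.54, 11.91 and 12.30 in mock-treated An-MBs, and 15.45, 14.99 and 14.59 in MES-treated An-LBs, against 8.16, 8.0 and 7.97 in mock-treated An-LBs. The low samples of both probes were thus the 3 mock An-LBs arrays, while the MES-treated arrays stayed near the top of the range in every tissue.

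CCL (AT3G26740) encodes a transcript that in Arabidopsis is controlled by the clock and rapidly degraded. Its levels were 12.65, 13.37 and 13.52 in MES-treated Ls, against 11.39, 10.99 and 10.54 in mock-treated Ls. They were 11.11, 11.61 and 11.34 in MES-treated SBs, against 8.61, 9.35 and 8.68 in mock-treated SBs. No overlap was seen in these tissues, and the differences were 2.20 and 2.47. The levels were 12.87, 12.67 and 11.99 in MES-treated An-MBs, against 8.33, 6.74 and 8.51 in mock-treated An-MBs. In the late anthers they were 13.80, 12.81 and 12.86 in MES-treated An-LBs, against 5.91, 5.45 and 6.24 in mock-treated An-LBs. The 3 mock An-LBs arrays were the lowest of all 24, and the difference of 7.29 in this tissue was, as for MEE14, 157-fold. AT4G27450 encodes an aluminium-induced protein with YGL and LRDR motifs. Its levels were 13.73, 12.04 and 11.54 in MES-treated Ls, against 6.15, 5.65 and 6.13 in mock-treated Ls. They were 12.99, 12.85 and 12.94 in MES-treated SBs, against 11.03, 11.61 and 9.54 in mock-treated SBs. The leaves, low only in mock-treated plants, gave the larger difference, 6.46 (88-fold). The levels were 14.97, 14.75 and 14.49 in MES-treated An-MBs, against 12.60, 11.05 and 11.48 in mock-treated An-MBs. They were 14.61, 14.08 and 13.92 in MES-treated An-LBs, against 8.75, 8.14 and 8.83 in mock-treated An-LBs. All MES-treated arrays were above the mock-treated arrays of the same tissue, and the MES-treated level varied by 2.30 over the tissues, against 5.73 for the mock-treated level. AtSIP2 (AT3G57520), an alpha-galactosidase that hydrolyses raffinose, averaged 15.67 ± 0.499 in MES-treated Ls and 13.47 ± 0.78 in mock-treated Ls, and 15.61 ± 0.218 in MES-treated SBs and 13.79 ± 0.663 in mock-treated SBs (SD, n = 3 each). It averaged 16.54 ± 0.534 in MES-treated An-MBs and 14.30 ± 0.175 in mock-treated An-MBs, and 17.10 ± 0.171 in MES-treated An-LBs and 13.13 ± 0.18 in mock-treated An-LBs (SD, n = 3 each). Its difference was largest in An-LBs, 3.97 (15.7-fold), and its mock-treated level varied by 1.18 only.

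**Figure D3:**
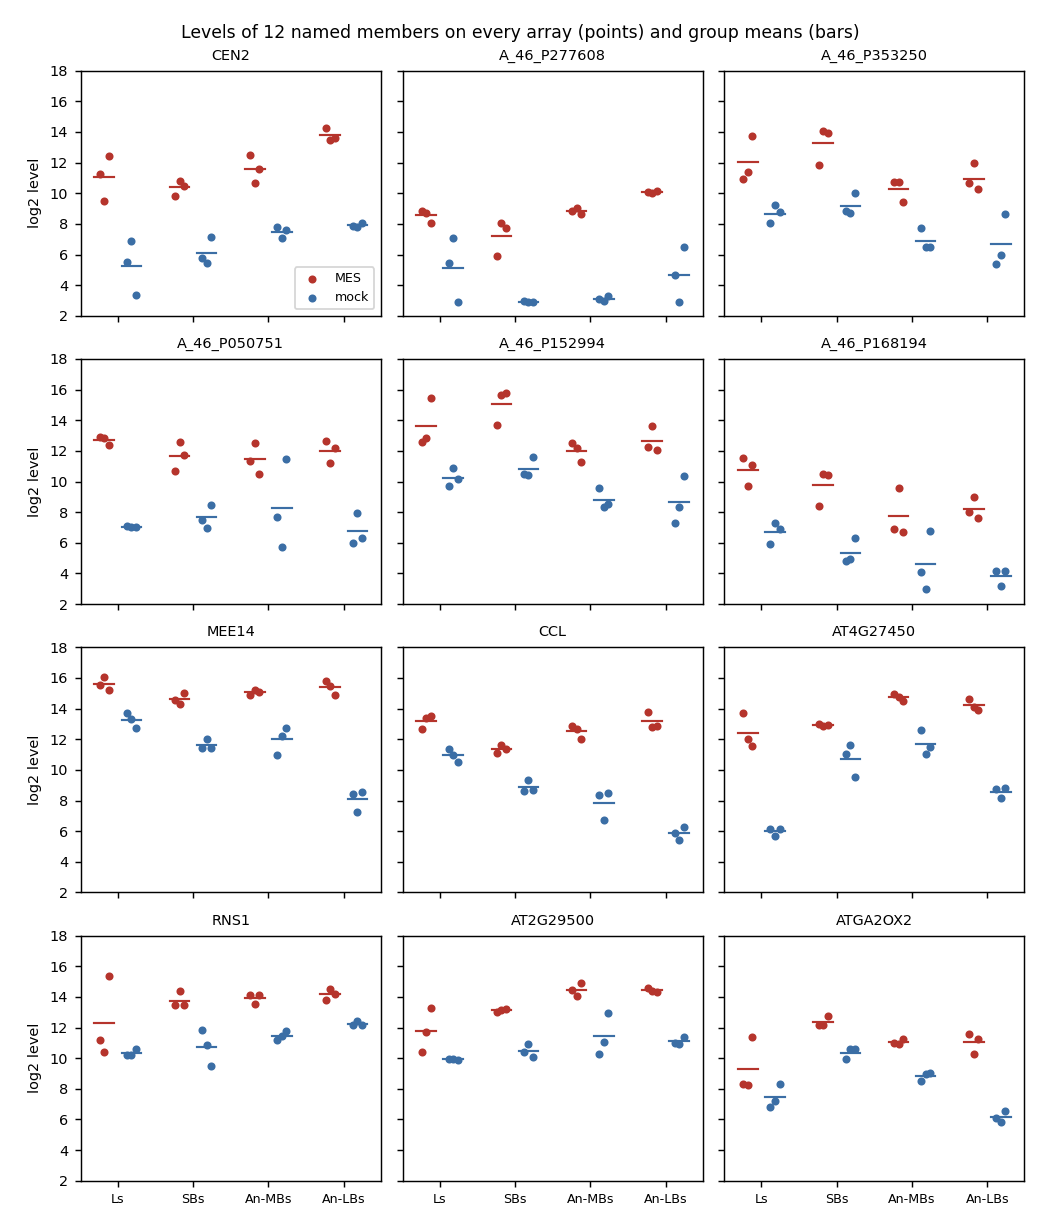
Log2 levels (vertical axis) of 12 named members on every array, with the 4 tissues on the horizontal axis, MES-treated samples in red left of mock-treated samples in blue, points for arrays and bars for group means of 3. MES-treated points lie above mock-treated points in all tissues for 8 of the 12 panels, and overlap in An-MBs for A_46_P050751 and A_46_P168194 and in Ls for RNS1 and ATGA2OX2.

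3 named members act in breakdown. RNS1 (AT2G02990), a secreted ribonuclease that in Arabidopsis is induced by phosphate starvation and wounding, had 11.19, 10.40 and 15.34 in MES-treated Ls, against 10.21, 10.19 and 10.61 in mock-treated Ls. It had 13.46, 14.36 and 13.46 in MES-treated SBs, against 11.84, 10.88 and 9.50 in mock-treated SBs. In Ls the groups overlapped, and MES Ls replicate 3 alone was far above the rest, so that the score of 1.93 was 0.46 without this array. It had 14.10, 13.53 and 14.13 in MES-treated An-MBs, against 11.19, 11.47 and 11.76 in mock-treated An-MBs. It had 13.82, 14.53 and 14.18 in MES-treated An-LBs, against 12.19, 12.40 and 12.15 in mock-treated An-LBs. In both anther stages every MES-treated array was above every mock-treated array, with differences of 2.45 and 1.93. HGO (AT5G54080), the homogentisate dioxygenase of tyrosine breakdown, differed by 2.23 for Ls, 1.54 for SBs, 2.45 for An-MBs and 2.23 for An-LBs, which made it one of the most even members. It averaged 12.09 ± 0.605 in MES-treated Ls and 9.87 ± 0.199 in mock-treated Ls, and 15.36 ± 0.145 in MES-treated An-LBs and 13.12 ± 0.133 in mock-treated An-LBs (SD, n = 3 each), so the step between the tissues was alike in both treatments. UBP18 (AT4G31670), a deubiquitinating enzyme, differed by 1.64 for Ls, 1.5 for SBs, 4.55 for An-MBs and 2.96 for An-LBs. It had 9.53, 8.56 and 9.12 in MES-treated An-MBs, against 4.63, 4.15 and 4.79 in mock-treated An-MBs, where the probe was well above background on 1 array only. In Ls its groups overlapped, with 9.51, 8.13 and 11.37 in MES-treated Ls, against 7.42, 7.95 and 8.72 in mock-treated Ls.

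The first member by score, CEN2 (AT4G37010), encodes a calcium-binding centrin that in Arabidopsis takes part in the repair of UV-damaged DNA. Its levels were 11.27, 9.51 and 12.41 in MES-treated Ls, against 5.50, 6.85 and 3.35 in mock-treated Ls. They were 9.83, 10.81 and 10.49 in MES-treated SBs, against 5.79, 5.47 and 7.13 in mock-treated SBs. The mock-treated probe was well above background on 1 of 3 arrays in Ls and on 2 of 3 in SBs, and on none of these arrays did it reach the MES-treated values. The levels were 12.49, 10.69 and 11.57 in MES-treated An-MBs, against 7.77, 7.07 and 7.60 in mock-treated An-MBs. They were 14.28, 13.48 and 13.62 in MES-treated An-LBs, against 7.88, 7.80 and 8.09 in mock-treated An-LBs. The differences were 5.83 for Ls, 4.25 for SBs, 4.10 for An-MBs and 5.87 for An-LBs, the smallest of them above that of every other member, and all 12 MES-treated arrays lay above all 12 mock-treated arrays. AT2G29500 encodes a small heat shock protein of the HSP20 type. Its levels were 10.41, 11.74 and 13.26 in MES-treated Ls, against 9.93, 9.97 and 9.90 in mock-treated Ls. They were 13.01, 13.16 and 13.21 in MES-treated SBs, against 10.42, 10.92 and 10.09 in mock-treated SBs. In Ls the MES-treated replicates spread from 10.41 to 13.26, and the lowest was 0.44 above the highest mock-treated one. The levels were 14.46, 14.05 and 14.94 in MES-treated An-MBs, against 10.28, 11.08 and 12.93 in mock-treated An-MBs. They were 14.58, 14.38 and 14.33 in MES-treated An-LBs, against 10.97, 10.96 and 11.41 in mock-treated An-LBs. Mock An-MBs replicate 3, at 12.93, was the highest mock-treated value and still below all MES-treated arrays of that tissue. COR27 (AT5G42900), a regulator of cold response and clock, differed by 1.58 for Ls, 2.66 for SBs, 3.1 for An-MBs and 2.76 for An-LBs. Its probe bears the same array identifier as that of AT2G29500 although the names differ, and across the 24 arrays the 2 probes correlated with r = 0.99. Which of the names holds was not tested.

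4 named members are regulators. ATGA2OX2 (AT1G30040), a gibberellin 2-oxidase that inactivates gibberellins, had 8.29, 8.28 and 11.38 in MES-treated Ls, against 6.83, 7.22 and 8.33 in mock-treated Ls. It had 12.19, 12.17 and 12.75 in MES-treated SBs, against 9.93, 10.59 and 10.58 in mock-treated SBs. In Ls MES replicate 3 was far above the other MES-treated arrays, both of which lay below mock replicate 3, and the score of 1.85 was 0.82 without that array. It had 10.96, 10.92 and 11.28 in MES-treated An-MBs, against 8.51, 8.97 and 9.01 in mock-treated An-MBs. It had 11.59, 10.30 and 11.28 in MES-treated An-LBs, against 6.07, 5.85 and 6.55 in mock-treated An-LBs. No overlap was seen from SBs onward, and the difference was largest in An-LBs, at 4.90 (29.9-fold). Rap2.6L (AT5G13330), an AP2/ERF transcription factor, differed by 2.53 for Ls, 3.08 for SBs, 2.30 for An-MBs and 1.70 for An-LBs. It was one of 5 members with the smallest difference in An-LBs and averaged 13.62 ± 0.075 in MES-treated An-LBs and 11.91 ± 0.168 in mock-treated An-LBs (SD, n = 3 each). HB-2 (AT2G18550), a homeobox transcription factor, differed by 1.72 for Ls, 1.62 for SBs, 2.55 for An-MBs and 5.02 for An-LBs and averaged 15.10 ± 0.515 in MES-treated An-LBs and 10.09 ± 0.498 in mock-treated An-LBs (SD, n = 3 each). A second probe of the same Arabidopsis gene, A_46_P018891, was no member: it differed by -0.42 for Ls, 0.84 for SBs, 3.05 for An-MBs and 3.48 for An-LBs, and its lowest MES mean of 4.92 was under the minimum of the rule. Both probes of HB-2 thus had their larger differences in the anthers, while the leaves had opposite signs. AT3G22160 encodes a VQ motif protein, a family that in Arabidopsis partners WRKY transcription factors, and it differed by 1.92 for Ls, 1.57 for SBs, 1.98 for An-MBs and 2.86 for An-LBs. Its MES-treated An-MBs arrays spread from 7.42 to 9.66, all above the mock-treated ones.

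The 5 highest members without a gene name were all among the first 6 by score. A_46_P277608 had 8.85, 8.74 and 8.08 in MES-treated Ls, against 5.43, 7.07 and 2.88 in mock-treated Ls. It had 5.91, 8.06 and 7.74 in MES-treated SBs, against 2.95, 2.91 and 2.87 in mock-treated SBs. In mock-treated SBs no array had the probe well above background, and the fold was at least 4.56-fold. It had 8.85, 9.06 and 8.65 in MES-treated An-MBs, against 3.1, 2.97 and 3.29 in mock-treated An-MBs. It had 10.11, 10.00 and 10.16 in MES-treated An-LBs, against 4.68, 2.87 and 6.51 in mock-treated An-LBs. The bound in An-MBs was at least 19-fold, and the mock-treated replicates of Ls and An-LBs were widely spread around the background. Without mock Ls replicate 3 its score of 3.43 was 2.31. A_46_P353250 and A_46_P152994 bear the same array identifier. The first had 10.94, 11.41 and 13.76 in MES-treated Ls, against 8.06, 9.21 and 8.75 in mock-treated Ls, and 11.82, 14.04 and 13.93 in MES-treated SBs, against 8.84, 8.68 and 10.00 in mock-treated SBs. It had 10.74, 10.74 and 9.39 in MES-treated An-MBs, against 7.75, 6.51 and 6.47 in mock-treated An-MBs, and 10.67, 11.95 and 10.25 in MES-treated An-LBs, against 5.37, 5.99 and 8.62 in mock-treated An-LBs. Its groups were apart in every tissue, by 1.63 to 1.82 between the nearest arrays. A_46_P152994 had 12.58, 12.84 and 15.47 in MES-treated Ls, against 9.71, 10.88 and 10.16 in mock-treated Ls, and 13.67, 15.67 and 15.75 in MES-treated SBs, against 10.51, 10.41 and 11.62 in mock-treated SBs. It had 12.50, 12.16 and 11.27 in MES-treated An-MBs, against 9.57, 8.36 and 8.53 in mock-treated An-MBs, and 12.24, 13.63 and 12.09 in MES-treated An-LBs, against 7.32, 8.35 and 10.35 in mock-treated An-LBs. The same arrays were high in both, MES Ls replicate 3 among the leaves and mock An-LBs replicate 3 among the mock-treated late anthers.

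A_46_P050751 had 12.93, 12.85 and 12.36 in MES-treated Ls, against 7.11, 7.03 and 7.02 in mock-treated Ls. It had 10.68, 12.55 and 11.71 in MES-treated SBs, against 7.51, 6.99 and 8.50 in mock-treated SBs. In Ls the replicates were tight and the difference was 5.66 (50.6-fold). It had 11.36, 12.52 and 10.48 in MES-treated An-MBs, against 7.67, 5.73 and 11.45 in mock-treated An-MBs. It had 12.63, 11.23 and 12.19 in MES-treated An-LBs, against 6.0, 7.95 and 6.31 in mock-treated An-LBs. Mock An-MBs replicate 3 overlapped the MES-treated arrays, and without mock An-MBs replicate 2 the score of 3.17 was 1.89. A_46_P168194 had 11.52, 9.68 and 11.08 in MES-treated Ls, against 5.94, 7.31 and 6.88 in mock-treated Ls. It had 8.42, 10.50 and 10.40 in MES-treated SBs, against 4.80, 4.93 and 6.32 in mock-treated SBs. These groups did not overlap. It had 6.91, 9.61 and 6.70 in MES-treated An-MBs, against 4.08, 3.00 and 6.78 in mock-treated An-MBs. It had 8.04, 9.00 and 7.59 in MES-treated An-LBs, against 4.14, 3.15 and 4.16 in mock-treated An-LBs. In An-MBs the groups overlapped by 0.08, and in An-LBs, where no mock-treated array had the probe well above background, the fold was at least 10.2-fold.

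11 array identifiers were represented by more than 1 member, 24 members in all. For the 16 pairs of probes within these identifiers, Pearson's r over the 24 arrays ran from 0.93 to 0.999. As probes of 1 identifier may bind the same transcript on the same arrays, they are not separate observations, and the 100 members hold 87 distinct identifiers. The identifier with the most members had 4, A_46_P001871, A_46_P290108, A_46_P140069 and A_46_P289688. They differed by 4.48 to 4.86 in Ls, 2.24 to 2.37 in SBs, 3.46 to 3.61 in An-MBs and 5.97 to 6.21 in An-LBs. The first of them had 14.98, 13.60 and 13.80 in MES-treated Ls, against 9.47, 9.26 and 9.06 in mock-treated Ls, and 14.42, 14.03 and 14.91 in MES-treated SBs, against 12.21, 12.53 and 11.51 in mock-treated SBs. It had 16.07, 15.11 and 15.65 in MES-treated An-MBs, against 12.90, 11.39 and 11.74 in mock-treated An-MBs, and 15.58, 15.93 and 15.33 in MES-treated An-LBs, against 9.91, 8.83 and 9.47 in mock-treated An-LBs. All 12 MES-treated arrays stood above all 12 mock-treated arrays for each of the 4 probes. The MES-treated level varied by 1.49 over the tissues, whereas the mock-treated level was lower in Ls and An-LBs than in SBs and An-MBs.

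The lists to which the members belong were examined over the probes of the published table that carry a listed gene, not over the whole array. The study had selected that table on these same arrays, so the counts are no independent evidence of direction. It held 11 of the 33 listed genes of sugar starvation and darkness and 7 of the 25 of amino acid breakdown. Of 17 probes for genes of sugar starvation and darkness, 7 of 16 tested were called higher in Ls and none lower, 5 of 17 higher and 1 lower in SBs, 6 higher and none lower in An-MBs, and 15 were called higher and 1 lower for An-LBs. At an unadjusted p under 0.05 limma gave 10 higher for Ls with 1 lower, 13 higher for SBs with 3 lower, and 13 higher for An-MBs with 0 lower. Their median differences were 1.03, 1.35, 2.24 and 2.85 in the 4 tissues, beside -0.05, 0.05, -0.04 and 0.24 over all probes tested. These counts and medians include the 4 members MEE14, CCL, AT4G27450 and AtSIP2, which the rule chose for being raised. All 4 were among the probes called higher in Ls, An-MBs and An-LBs, and all but AT4G27450 in SBs. Besides the 4 members the list held 5 probes of BXL1, a beta-xylosidase of the cell wall, which did not behave alike. A_46_P147824 differed by 1.43, 3.48, 3.54 and 6.75 over the tissues from Ls to An-LBs. A_46_P151924 differed by 0.83, 3.06, 4.39 and 5.04, and A_46_P348900 by 1.28, 2.70, 3.47 and 7.11. A_46_P310940 differed by 0.72, -2.20, 2.32 and 7.84, and A_46_P259534 by -0.34, -5.28, -0.04 and 0.63. In An-LBs A_46_P259534 was the only BXL1 probe of the list not called higher. DIN9, a mannose-6-phosphate isomerase, differed by -0.52 in Ls and by 1.45, 3.65 and 2.85 in SBs, An-MBs and An-LBs. Of 9 probes for amino acid breakdown, of which HGO was the member and which share with the starvation list the probes of IVD, BCE2, GDH2, AT1G21400 and the lysine-breakdown gene AT4G33150, 2 of 7 tested were called higher for Ls, 1 of 8 for SBs, 0 of 8 for An-MBs and 7 of 9 for An-LBs, where 2 were called lower. In An-MBs 6 of the 8 were higher at an unadjusted p under 0.05 in limma, and 1 was called with either of the other normalizations. Their medians were 0.89, 1.05, 1.80 and 1.97. HGO is included in these counts and medians, and it was the 1 probe called higher in SBs. The published table held no probe for any of the 18 listed genes of branched-chain amino acid synthesis, the pathway of the target of MES. Probes of that pathway elsewhere on the array were not looked for, so its levels are not known here.

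Lists of other responses, like the 2 above, had calls in both directions. The lists of other responses were matched by words of the gene descriptions, not by listed genes. Where a list held a member, its counts and medians include that member. Of 14 probes for stress chaperones, with AT2G29500 as a member, 2 of 12 tested were called higher and 2 lower in Ls, 2 of 14 higher and 1 lower in SBs, 2 higher and none lower in An-MBs, and 5 were called higher and 7 lower for An-LBs. Their medians were 0.17 for Ls, 0.01 for SBs, -0.13 for An-MBs and -1.25 for An-LBs, the value in SBs being -0.07 with scaling to the 75th percentile and -0.0011 with normexp. ATTIL, a probe of this list just below the members, is described as a temperature-induced lipocalin and not as a chaperone. It was called higher in all 4 tissues, with differences of 1.39, 1.42, 2.70 and 3.01. A list for autophagy and proteolysis, matched by words of the gene descriptions, held 37 probes, with UBP18 as a member. None was described as an autophagy protein, and TBL43 and TBL22 were described only as TRICHOME BIREFRINGENCE-LIKE. In Ls 5 of 32 tested were called higher and 3 lower, and in SBs 2 of 32 higher and 3 lower. In An-MBs 7 of 33 were higher, TBL43 among them, and 2 lower. For An-LBs 10 were higher and 23 lower, TBL43 and TBL22 among the lower, and the median was -2.20. Of 25 probes for detoxification, none of them a member, 5 of 20 tested were called higher and 5 lower in Ls, 3 of 23 higher and none lower in SBs, 10 of 23 higher and 1 lower in An-MBs, and for An-LBs 15 of 24 higher and 6 lower, with medians of -0.17, 0.93, 1.82 and 2.20. With normexp the medians of this list were 0.45 in SBs and 1.14 in An-MBs. At an unadjusted p under 0.05 the detoxification list in SBs had 0 lower and 10 higher there, and the chaperone list in An-MBs had 4 in each direction.

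How the members differ between tissues without MES was tested within the mock-treated plants, whose tissue contrasts were not part of the rule although the same arrays were. Each tissue kept 1 position on the slides, and the effects of tissue and position cannot be told apart. Of the members tested, 22 were higher and 15 lower in mock SBs than in mock Ls, out of 97, beside 17.3% and 19.3% of all probes. In mock An-MBs against mock SBs 8 were higher and 18 lower out of 97, beside 8.29% and 9.26%. In mock An-LBs against mock An-MBs 13 were higher and 26 lower out of 96, beside 17.5% and 23.3%, and in mock An-LBs against mock Ls 26 were higher and 20 lower out of 95, beside 23% and 28%. Most of these shares lay near those over all probes, and nothing particular to the members is read from the counts. In none of the 4 comparisons were 24 of the members called. Each mock slide held all 4 tissues, and the sign was the same on all 3 slides for 37, 26, 39 and 46 of the called members in the 4 comparisons. With slide as a block 34, 18, 39 and 41 of these calls were found again in the same direction. For An-MBs against SBs the count of 26 was 13 without mock SBs replicate 1, 15 without mock An-MBs replicate 1 and 13 without mock An-MBs replicate 3.

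**Figure D4:**
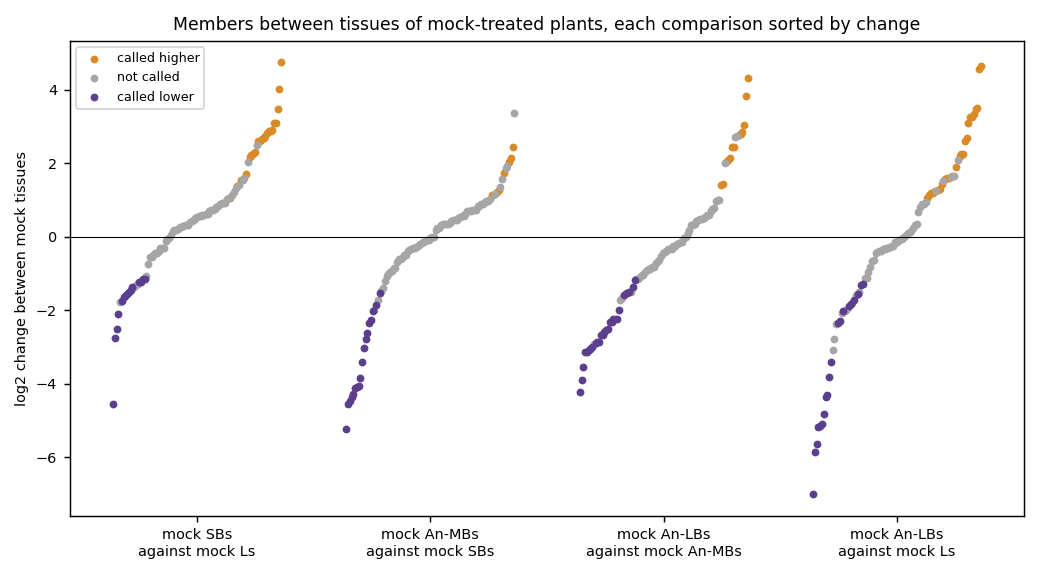
Log2 changes of the members (vertical axis) in 4 comparisons between tissues of mock-treated plants, 3 arrays per tissue, sorted within each comparison, with colours for members called higher, called lower or not called. Members lie on both sides of 0 in each comparison, with 26 called higher and 20 called lower in mock An-LBs against mock Ls.

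In mock-treated plants MEE14 and CCL were lower in late anthers than in leaves, AT4G27450 and COR27 were higher, and AtSIP2 was not called. MEE14 fell in mock An-LBs against mock Ls by 5.18 (SE 0.418, limma adjusted p = 0.000115), with differences of -5.23, -6.09 and -4.23 on slides 1, 2 and 3. Its change was -1.64 (SE 0.296, limma adjusted p = 0.00444) in mock SBs against mock Ls and -3.90 (SE 0.552, limma adjusted p = 0.00197) in mock An-LBs against mock An-MBs. CCL fell in mock An-LBs against mock Ls by 5.11 (SE 0.297, limma adjusted p = 2.95e-05). CCL also changed by -2.09 (SE 0.298, limma adjusted p = 0.00167) in mock SBs against mock Ls and by -2.0 (SE 0.51, limma adjusted p = 0.0173) in mock An-LBs against mock An-MBs, a call lost without mock An-MBs replicate 1, where the change was -1.76, and without replicate 3, where it was -1.67. The VQ protein gene AT3G22160 fell in mock An-LBs against mock Ls by 3.40 (SE 0.414, limma adjusted p = 0.00065), and in mock SBs against mock Ls by 1.55 (SE 0.277, limma adjusted p = 0.00423). It changed by -2.35 (SE 0.299, limma adjusted p = 0.00389) in mock An-MBs against mock SBs. AT4G27450 went another way, being lowest in leaves. It was higher by 4.75 (SE 0.525, limma adjusted p = 0.000583) in mock SBs than in mock Ls and by 2.60 (SE 0.25, limma adjusted p = 0.000245) in mock An-LBs than in mock Ls, and it changed by -3.14 (SE 0.435, limma adjusted p = 0.00182) in mock An-LBs against mock An-MBs. AtSIP2 changed by -1.18 (SE 0.17, limma adjusted p = 0.00213) in mock An-LBs against mock An-MBs.

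Other named members were higher in mock-treated anthers or buds than in leaves. HGO rose in mock An-LBs by 3.26 (SE 0.162, limma adjusted p = 1.58e-05) over mock Ls and by 2.04 (SE 0.217, limma adjusted p = 0.000789) over mock An-MBs. Rap2.6L rose in mock An-LBs by 3.49 (SE 0.216, limma adjusted p = 3.87e-05) over mock Ls and by 2.46 (SE 0.202, limma adjusted p = 0.000414) over mock An-MBs, and in mock SBs by 1.54 (SE 0.218, limma adjusted p = 0.00162) over mock Ls. HB-2 rose in mock SBs by 2.24 (SE 0.471, limma adjusted p = 0.00797) and in mock An-LBs by 3.1 (SE 0.517, limma adjusted p = 0.00246), both over mock Ls. These 3 genes were thus higher toward the anthers without MES. RNS1, COR27 and AT2G29500 were higher in mock An-LBs than in mock Ls by 1.91 (SE 0.173, limma adjusted p = 0.000188), 1.59 (SE 0.167, limma adjusted p = 0.000353) and 1.18 (SE 0.168, limma adjusted p = 0.00128). For CEN2 the change of 2.69 (SE 0.845, limma adjusted p = 0.0297) in the same comparison was lost without mock An-LBs replicate 1, 2 or 3, with changes of 2.71, 2.75 and 2.61, and without mock Ls replicate 1, with 2.82. UBP18 fell in mock An-MBs against mock SBs by 3.02 (SE 0.256, limma adjusted p = 0.000782) and rose in mock An-LBs against mock An-MBs by 4.33 (SE 0.492, limma adjusted p = 0.000954). ATGA2OX2 was one of the 2 members called in all 4 comparisons, the other being A_46_P017316. It rose in mock SBs by 2.90 (SE 0.418, limma adjusted p = 0.00176) over mock Ls, then changed by -1.54 (SE 0.254, limma adjusted p = 0.00932) in mock An-MBs against mock SBs and by -2.67 (SE 0.247, limma adjusted p = 0.000554) in mock An-LBs against mock An-MBs. Its change of -1.31 (SE 0.421, limma adjusted p = 0.0324) in mock An-LBs against mock Ls was lost without mock An-LBs replicate 1 or 2, at -1.27 and -1.15, and without mock Ls replicate 2 or 3, at -1.43 and -0.87, and it was -0.73 with scaling to the 75th percentile and -0.82 with normexp.

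Among members without a name, the largest changes between mock-treated tissues were falls toward the anthers. In mock An-LBs against mock Ls A_46_P081671 was not well above background in the anthers and was at least 40.5-fold lower (limma adjusted p = 0.000428), and it fell in mock An-MBs against mock SBs by 5.24 (SE 0.764, limma adjusted p = 0.00625). A_46_P340940 changed by -5.86 (SE 0.579, limma adjusted p = 0.000271) and A_46_P291833 by -5.65 (SE 0.993, limma adjusted p = 0.00306) in mock An-LBs against mock Ls. Both were well above background on 1 of 3 mock An-LBs arrays only, so the sizes of these falls are uncertain. A_46_P276553 was not well above background in mock SBs and was there at least 7.99-fold lower than in mock Ls (limma adjusted p = 0.00068), and at least 1.53-fold lower than in mock An-MBs (limma adjusted p = 0.00843), a call lost with normexp, where An-MBs were higher by 0.58. A_46_P105329 changed by -2.76 (SE 0.236, limma adjusted p = 0.000213) and A_46_P291833 by -2.51 (SE 0.424, limma adjusted p = 0.00339) in mock SBs against mock Ls. In mock An-MBs against mock SBs A_46_P307755 changed by -4.54 (SE 0.625, limma adjusted p = 0.00509) and A_46_P340940 by -4.47 (SE 0.704, limma adjusted p = 0.00809). Both were well above background on 1 of 3 mock An-MBs arrays only. In mock An-LBs against mock An-MBs A_46_P152159 changed by -4.23 (SE 0.688, limma adjusted p = 0.00325) and A_46_P344365, the partner of MEE14, by -3.54 (SE 0.455, limma adjusted p = 0.0014). The largest rises were found toward the late anthers and from leaves to small buds. A_46_P191969 rose in mock An-LBs by 4.65 (SE 0.401, limma adjusted p = 0.000152) over mock Ls and by 3.04 (SE 0.463, limma adjusted p = 0.00255) over mock An-MBs. A_46_P238279 rose in mock SBs by 4.02 (SE 0.395, limma adjusted p = 0.000365) over mock Ls, and A_46_P121754 in mock An-LBs by 3.84 (SE 0.242, limma adjusted p = 0.000178) over mock An-MBs. A_46_P045756 rose in mock An-LBs by 4.58 (SE 1.13, limma adjusted p = 0.012) over mock Ls. Both A_46_P045756 and A_46_P238279 were well above background on 1 of 3 mock Ls arrays only.

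Several calls of unnamed members were lost when single arrays were left out or slide was a block. The change of 2.04 (SE 0.395, limma adjusted p = 0.0155) of A_46_P045756 in mock An-MBs against mock SBs was lost without mock SBs replicate 1, at 2.09, and with slide as a block (limma adjusted p = 0.0536). The change of 3.49 (SE 1.01, limma adjusted p = 0.0271) of A_46_P244414 in mock SBs against mock Ls was lost without mock Ls replicate 1 or 2, at 2.61 and 3.26, and without mock SBs replicate 1 or 3, at 3.04 and 3.61, and its limma adjusted p with slide as a block was 0.0504. A_46_P244414 was well above background on 1 of 3 mock Ls arrays only. A_46_P339430 was higher in mock An-LBs than in mock Ls by 3.52 (SE 1.06, limma adjusted p = 0.0261), with 3.71, 0.50 and 6.34 on slides 1, 2 and 3. This call was lost without mock An-LBs replicate 1 or 3, at 3.26 and 2.68, and without mock Ls replicate 1 or 3, at 3.68 and 2.95, and with slide as a block (limma adjusted p = 0.0661). The same probe was higher in mock An-MBs than in mock SBs by 2.44 (SE 0.641, limma adjusted p = 0.039), a call lost without mock An-MBs replicate 1 or 3, at 2.36 and 2.13, and without mock SBs replicate 1 or 2, at 2.21 and 2.01. The pair of high-score probes A_46_P353250 and A_46_P152994 fell in mock An-MBs against mock SBs by 2.26 (SE 0.492, limma adjusted p = 0.0224) and 2.02 (SE 0.452, limma adjusted p = 0.0243). Both calls were lost without mock SBs replicate 1, at -2.43 and -2.19, without mock SBs replicate 3, at -1.85 and -1.64, and without mock An-MBs replicate 3, at -2.04 and -1.88. With slide as a block their limma adjusted p values were 0.0519 and 0.0513, so both calls were lost there too.

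The range of group means over the 4 tissues was narrower under MES for 56 of the 100 members, beside 71.4% of the 26909 probes with the same minimum level. The median range of the members was 2.04 in MES-treated and 2.72 in mock-treated plants, and that of all these probes 1.17 in MES-treated and 1.55 in mock-treated plants. The minimum level bounded the MES-treated means alone from below, which by itself favours a narrower range under MES. Nothing is therefore read from these ranges. In An-LBs the 3 MES-treated arrays lay above all 12 mock-treated arrays of every tissue for 83 members, beside 9.26% of the probes. The rule used these same values, so this count is a description only. Replicates were farther apart for the median member than for the median probe. The median SD within a group was 0.79 for the members in MES-treated Ls and 0.54 in mock-treated Ls, beside 0.34 and 0.19 over all probes with the minimum level. In An-LBs the SD was 0.34 in MES-treated and 0.58 in mock-treated samples, beside 0.25 and 0.22. Single arrays stood off from their groups in many members at once: MES Ls replicate 3 lay above its group mean in 63 members, with a median deviation of 0.39, MES Ls replicate 2 had a median deviation of -0.41, MES SBs replicate 1 lay above the mean of its group in 18 members only, and mock An-LBs replicate 3 did so in 77.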

How the data were processed

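Transcripts were measured on 24 Agilent single-colour arrays. The intensity values of the spots were made with Feature Extraction (version 10.7.3.1 per the file headers), and the deposited log2 values were made by the authors through quantile normalization in GeneSpring and log2 transformation. The members were taken from the deposited log2 values. For all tests the intensities were averaged per probe, 1417 control spots were left out, and values were log2 transformed and quantile normalized with limma 3.58.1 under R 4.3.3 (data.table version 1.17.8). They differed from the deposited values by a median of 6.54e-07 and at most by 2.48. Outlying spots had no weight, and no probe was saturated.

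Each pair of groups was fitted alone (lmFit, eBayes, 6 arrays) with probes that were well above background on 3 or more arrays. A call needed a two-sided Benjamini-Hochberg adjusted p under 0.05 over all probes tested and a 2-fold change or more. These fits were tested on simulated data. Members and gene lists were chosen with earlier results of these data known. Named members are those paired with an Arabidopsis gene, those on a list, the 5 highest without a gene, and, between mock tissues, the 3 called with the largest change in each direction, and values on every array are given for the 12 named members of highest score.

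Replicate numbers were not used as pairs. As a check, each MES array's deviation from its group mean was correlated with that of the mock array of the same number over 27364 probes. For replicates 1, 2 and 3 the coefficients were 0.145, 0.252 and 0.429 (Ls), -0.0664, 0.233 and 0.39 (SBs), 0.241, 0.261 and 0.0164 (An-MBs), -0.234, 0.0399 and 0.214 (An-LBs). All were above 0.1 for Ls alone, which is a hint from the data, since the labels give no shared source. Alternatives were other scalings, background corrections, filters and minimum levels, medians, the replicate number or slide as a block, all arrays in 1 fit, the methods' t-test, counting mock An-MBs replicates 1 and 2 as 1 sample, and leaving out each array, and, added after the data were seen, the arrays of the second scan day only and the gene lists under other normalizations.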

Additional observations from a re-analysis of the deposited data

How the results depend on the processing

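Of the 100 members, 100 were chosen again with quantile normalization repeated here, 94 with scaling to the 75th percentile, 83 with normexp, 84 and 87 with a minimum level of 6 and 8, 74 with medians and 86 on the second scan day only, and between 77 and 100 with an array left out, the lowest without MES Ls replicate 3. The count of members without overlap in all tissues stayed between 66 and 75 under the other settings and between 70 and 82 with an array left out. The counts of members called raised depended on the test. With the methods' t-test at its own threshold they were 16 for Ls, 18 for SBs, 20 for An-MBs and 45 for An-LBs, and with Benjamini-Hochberg adjustment 1 in Ls, 2 in SBs and 30 in An-MBs. On the second scan day only they were 1 in Ls, 5 in SBs and 24 in An-MBs, which are the same fits as without mock replicate 1 of these tissues. All 24 arrays in 1 fit gave 77 in Ls, the replicate block gave 43 in SBs, and mock An-MBs replicates 1 and 2 averaged as 1 gave 35 in An-MBs. With the replicate block the counts were 64 in Ls, 77 in An-MBs and 95 in An-LBs, and 35, 22, 42 and 46 in the mock comparisons. Leaving out 1 array gave 1 to 63 for Ls, 5 to 47 for SBs, 24 to 89 for An-MBs and 87 to 96 for An-LBs. Between mock tissues the t-test at its own threshold called 4 members in SBs against Ls, 1 in An-MBs against SBs, 7 in An-LBs against An-MBs and 11 in An-LBs against Ls, and with adjustment 11 in An-MBs against SBs. With an array left out these comparisons gave 33 to 41, 13 to 30, 35 to 47 and 37 to 47. The causes were not tested. Under normexp the scores of A_46_P168194, A_46_P277608 and CEN2 were 1.44, 1.72 and 3.1, and the score of ATGA2OX2 was 1.07 with medians. For the named members, no called change between mock tissues and no score changed sign under any setting run. The scores of the other members were not followed under these settings. The median of the stress chaperone list in SBs did change sign, and so did some changes that were not called. Groups of 3 arrays limit all calls, and signals near background limit the folds of dim probes.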
